A study of Sus scrofa with 8 samples.

Results

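A set of 10 genes that endothelial cells, the lining cells of blood vessels, use as receptors, as junction proteins or as parts of a mature vessel wall were followed in single-cell RNA-seq of pig somites and myotome. They were KDR, FLT1, FLT4, TEK, TIE1, PECAM1, CDH5, PLVAP, GPIHBP1 and PRND, and each had a row among the 21301 genes of the 8 count matrices. They were chosen by their measured levels across stages in endothelial cells of these libraries, so their stage pattern is described here without a test. The libraries came from somites at embryonic day 16 (E16), 18 (E18) and 21 (E21) and from myotome, the muscle-forming part of the somite, at E28. At each stage there was 1 library from Tibetan pigs (ZZ) and 1 from the Duroc by Tibetan cross (DZ), whose female parents were of the same breed and whose male parents differed. Each library held cells of 5 embryos pooled from a single sow, so the 2 libraries of a stage were no replicates of each other and sow, breed and library cannot be told apart within a stage. All E28 values came from myotome and all others from somites, so age and tissue cannot be told apart between E21 and E28.

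Endothelial cells are told to grow, move and survive mainly by vascular endothelial growth factors, which bind the receptor tyrosine kinases KDR, FLT1 and FLT4. A neighbouring pair of receptor kinases, TEK and TIE1, answers to the angiopoietins and keeps vessels stable. CDH5 is the cadherin that holds endothelial cells together, and PECAM1 is an adhesion molecule of the same contacts. PLVAP forms the diaphragms that span the pores and caveolae of permeable endothelium, and GPIHBP1 carries lipoprotein lipase to the capillary wall. PRND encodes doppel, a relative of the prion protein that brain endothelium is known to make in newborn mice.

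The genes lay on 8 chromosomes of the pig assembly Sscrofa11.1. The VEGF receptors were KDR at chr8:41809116-41856379 on the minus strand, FLT1 at chr11:5620698-5797095 on the minus strand and FLT4 at chr2:78076008-78115137 on the plus strand. TEK was at chr1:195938177-196052294 and TIE1 at chr6:167919662-167947253, both on the minus strand. PECAM1 was at chr12:14667643-14723296, CDH5 at chr6:27108560-27142145 and PLVAP at chr2:60324565-60344450, all on the plus strand. GPIHBP1 was at chr4:1253401-1256921 on the minus strand and PRND at chr17:13729715-13735485 on the plus strand. The start of PRND was 24588 bases past the end of PRNP, the prion protein gene, on the same strand. TEK overlapped the gene LOC102166359 and PECAM1 the long non-coding RNA LOC110255989, each on the opposite strand.

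The 250 bases in front of the annotated start are shown for PRND and GPIHBP1, the members that differed most between stages, and for TEK, the member lowest in late relative to early libraries. Capitals mark GGAA or its reverse complement TTCC, the core that ETS factors of the ERG and FLI1 kind bind. The sequences are those of RefSeq on Sscrofa11.1, read 5′ to 3′ on the strand of the gene, at chr17:13729465-13729714 for PRND, chr4:1256922-1257171 for GPIHBP1 and chr1:196052295-196052544 for TEK. The starts are those of predicted gene models, and GPIHBP1 had several transcripts with different starts.
PRND: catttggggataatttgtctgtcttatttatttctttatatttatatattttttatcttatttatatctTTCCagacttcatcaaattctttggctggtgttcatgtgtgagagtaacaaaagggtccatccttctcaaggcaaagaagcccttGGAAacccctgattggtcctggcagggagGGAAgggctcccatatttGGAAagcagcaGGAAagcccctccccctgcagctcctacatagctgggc
GPIHBP1: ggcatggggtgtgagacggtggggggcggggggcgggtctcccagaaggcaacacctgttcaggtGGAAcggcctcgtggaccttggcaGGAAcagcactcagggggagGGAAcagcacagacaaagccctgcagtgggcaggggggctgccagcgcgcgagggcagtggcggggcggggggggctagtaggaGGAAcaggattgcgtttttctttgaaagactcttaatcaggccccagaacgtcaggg
TEK: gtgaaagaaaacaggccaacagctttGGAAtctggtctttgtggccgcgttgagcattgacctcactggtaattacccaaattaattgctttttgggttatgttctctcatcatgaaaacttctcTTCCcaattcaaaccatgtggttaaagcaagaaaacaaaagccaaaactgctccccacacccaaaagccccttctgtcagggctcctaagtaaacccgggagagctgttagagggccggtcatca

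Counted on both strands, the PRND window held 5 matches to GGAA, the GPIHBP1 window 4 and the TEK window 2. Over the same 250 bases of 19556 protein-coding genes, 92.7% held at least 1 match and the median was 3. The letters GATA (or TATC) occurred 3 times in the PRND window and 3 times in that of PLVAP, and 0 times in the windows of GPIHBP1 and TEK, against 43.3% of all windows with a match. CACCC (or GGGTG) occurred 1 time each for GPIHBP1 and TEK, 2 times for PLVAP and 0 times for PRND, against 53.9% of all windows. The share of G and C was 42.8% for PRND, 45.6% for TEK and 64.8% for GPIHBP1, with a median of 57.6% over all windows. A match of these letters is a description of the sequence only.

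After removal of damaged cells and likely doublets, 74147 cells remained. Endothelial cells were picked with 16 other endothelial genes, such as EGFL7, ESAM, CLDN5, ERG and SOX18, and not with any of the 10 genes. A cell with a molecule, counted as a unique molecular identifier (UMI), of at least 4 of them was called endothelial gated. Here and in all lists of values by stage the ZZ library is given first and the DZ library second. The gate took 388 and 799 cells at E16, 194 and 273 at E18, 105 and 55 at E21, then 69 and 62 at E28, or 1945 in all. Most of the endothelial gated cells were thus from E16. Detection of 5 members that mark endothelium in general, KDR, TIE1, PECAM1, CDH5 and PLVAP, is given as a description only, since measured levels chose them. At least 2 of the 5 were detected in 98.5% and 96.1% of gated cells at E16 and 92.3% and 96.3% at E18. The figures were 86.7% and 67.3% at E21 and 88.4% and 88.7% at E28, against 0.156% to 3.58% of the cells outside the gate. The share was lowest in E21-DZ.

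The libraries held 50110370 to 71091640 UMIs and the endothelial gated cells of a library 548076 to 6406358. Values are given as counts per 1000000 UMIs (CPM), from the UMIs summed over the gated cells of a library, with no scaling to gene length, so levels are compared between libraries and not between genes. Gated cells had a median of 6478 to 9940 UMIs and the other cells 3398 to 6006. E16-ZZ stood apart in that 39.2% of its barcodes were over the limit of 10% mitochondrial UMIs, against 1.05% to 9.15% in the other 7 libraries. Between 13 and 38 cell barcodes were shared by any 2 libraries, at most 0.404% of the smaller one. Gated cells also carried genes of other cells. The summed level of 9 fibroblast markers in gated cells was 237 to 642 CPM in early libraries (E16 and E18) and 501 to 1146 CPM in late ones (E21 and E28), with 0 of the 9 absent, and 6.88% to 14.9% of early and 17.1% to 37.1% of late gated cells carried at least 3 of them. Among 10 erythroid markers it was 177 to 2916 CPM early and 42.5 to 146 CPM late, with up to 2 and up to 7 of the markers at 0. Among 8 epithelial markers it was 348 to 690 CPM early and 13.2 to 109 CPM late. The summed level of 11 macrophage markers was higher in gated than in other cells. It was 95.6 to 140 against 3.14 to 10.4 CPM early and 150 to 348 against 3.94 to 52.6 CPM late. Of these 11 markers, 4 to 8 were at 0 in early gated cells and 0 to 8 in late ones. At most 1.29% of early and 1.82% of late gated cells carried at least 3 of them. Early gated cells were also above the other cells in 9 chondrogenic markers, at 444 to 647 against 243 to 393 CPM. They held 715 to 946 CPM of 7 neural crest or glia markers, against 896 to 1155 CPM in the other cells. Of each of these lists 2 to 4 markers were at 0 in early gated cells. Without gated cells that carried at least 3 erythroid, macrophage, epithelial, neuron, myogenic or chondrogenic markers, the late to early ratios of the members were close to those of all gated cells, such as 0.627 for TEK, 36.4 for GPIHBP1 and 106 for PRND. Cells with fibroblast markers stayed in, and their part in the results was not tested.

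The endothelial gated share of cells was 7.14% and 8.41% at E16, 2.09% and 2.90% at E18, 1.00% and 0.598% at E21, then 0.698% and 0.566% at E28. Every early library was above every late one. The mean was 5.13% ± 3.11 (SD, n = 4) in early and 0.716% ± 0.200 (SD, n = 4) in late libraries, a difference of -4.42 percentage points (two-sided exact permutation test, p = 0.0286, the smallest that 70 assignments allow). The 70 assignments treated the libraries of a stage as independent, so the p-value does not measure the spread between stages. With each cell thinned to 1500 UMIs before the gate the difference was -1.94, and with a mitochondrial limit of 5% it was -0.66. Without both E16 libraries the early mean was 2.49% and the difference -1.78 (exact permutation p = 0.133, the smallest that 15 assignments allow).

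The 3 VEGF receptors each had a stage pattern of their own, with late to early ratios between 0.962 and 1.34. KDR, the main signalling receptor for VEGFA, was at 237.8 and 273.5 CPM at E16, 231.3 and 264.4 at E18, 275.9 and 235.4 at E21, then 339.2 and 269.0 at E28. Early and late libraries overlapped, with 251.7 ± 20.4 CPM early and 279.9 ± 43.3 CPM late (SD, n = 4 each), a ratio of 1.11. FLT1, a receptor that binds VEGFA tightly and signals weakly, was at 64.4 and 98.5 CPM at E16, 119.5 and 116.0 at E18, 113.8 and 113.1 at E21, then 67.3 and 89.2 at E28. Its 4 libraries of E18 and E21 lay closely together and above the 4 of E16 and E28, and the late to early ratio was 0.962. It was 0.776 with a gate of at least 3 genes, 0.912 with the gate on cells thinned to 1500 UMIs and 0.861 without E16-ZZ. It was 1.01 with a gate of at least 5 genes, 1.06 without E28-ZZ and 1.14 without both E28 libraries. With a mitochondrial limit of 5%, which left E28-DZ as the sole late library, it was 1.73, so its direction depended on the setting. FLT4, the receptor for VEGFC that later marks lymphatic vessels, was at 32.2 and 38.9 CPM at E16, 57.8 and 58.9 at E18, 63.5 and 63.9 at E21, then 63.3 and 61.8 at E28. For FLT4 the E16 libraries were lowest and the other 6 spanned 57.8 to 63.9 CPM, so that its late to early ratio of 1.34 was 1.08 without both E16 libraries and 2.30 with the 5% limit.

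The 2 angiopoietin receptors went in opposite directions. TEK, the receptor that binds angiopoietins, was at 195.3 and 314.5 CPM at E16, 227.3 and 254.1 at E18, 204.7 and 169.7 at E21, then 129.3 and 97.4 at E28. Both E28 libraries were below all others, E21-ZZ was above E16-ZZ, and the early mean of 247.8 ± 50.6 CPM compared with 150.3 ± 46.8 CPM late (SD, n = 4 each), a ratio of 0.606. Without both E28 libraries the ratio was 0.76 and with the 5% limit 0.362. TIE1, its partner, long held to be a receptor without a ligand, was at 211.9 and 283.5 CPM at E16, 265.6 and 297.2 at E18, 385.3 and 346.7 at E21, then 394.6 and 369.2 at E28. All 4 late libraries were above the 4 early ones, at a ratio of 1.41 (3.14 with the 5% limit), and the E21 and E28 values were not separated from each other.

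Both adhesion genes were higher in late libraries. PECAM1 was at 552.6 and 446.9 CPM at E16, 531.2 and 513.4 at E18, 730.2 and 669.6 at E21, then 915.9 and 1195.4 at E28. E16 and E18 were not separated, E21 lay above them and E28 above E21, with a late to early ratio of 1.72 (4.27 with the 5% limit). CDH5 was at 107.7 and 136.3 CPM at E16, 131.3 and 217.3 at E18, 228.8 and 310.2 at E21, then 376.1 and 284.1 at E28. The means were 148.1 ± 47.7 CPM early and 299.8 ± 61.2 CPM late (SD, n = 4 each), a ratio of 2.02 (3.15 with the 5% limit), with overlap between E16 and E18 and between E21 and E28. PLVAP, the diaphragm protein, was at 1428.7 and 1323.4 CPM at E16, 1364.9 and 1284.5 at E18, 1910.3 and 1636.6 at E21, then 2556.3 and 1693.6 at E28. Its early libraries spanned a narrow range and all late ones were above it, at a ratio of 1.44, while E21 and E28 overlapped.

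GPIHBP1 and PRND were nearly absent from early gated cells and clearly present in late ones. GPIHBP1, the capillary anchor of lipoprotein lipase, was at 0.721 and 0.780 CPM at E16 and 3.04 and 2.58 CPM at E18, from 3, 5, 7 and 7 UMIs. In the late libraries it was at 43.8 and 96.7 CPM at E21 and 56.7 and 107.1 CPM at E28, from 40, 53, 43 and 78 UMIs. At both late stages the DZ library was higher than the ZZ library, and E21 and E28 overlapped. The mean was 1.78 ± 1.20 CPM early and 76.1 ± 30.6 CPM late (SD, n = 4 each), 42.7 times as high. Without both E16 libraries the early mean was 2.81 CPM and the ratio 27.1. With the 5% limit GPIHBP1 was at 0, 0 and 3.29 CPM in the 3 early libraries left and at 117.9 CPM in E28-DZ.

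PRND, the doppel gene, was at 2.89 and 0.156 CPM at E16 and 3.48 and 0.737 CPM at E18, from 12, 1, 8 and 2 UMIs. It was at 121.5 and 120.4 CPM at E21 and 213.8 and 321.2 CPM at E28, from 111, 66, 162 and 234 UMIs. The E28 libraries were above those of E21, and the E21 libraries were level with each other. The mean was 1.81 ± 1.62 CPM early and 194.2 ± 95.3 CPM late (SD, n = 4 each), 107 times as high, and leaving out any 1 library gave 82.1 to 154 times, the highest without E18-ZZ, and leaving out both E28 libraries gave 66.7 times. PRNP, its neighbour on chromosome 17, was at 5.77 and 3.43 CPM at E16, 13.9 and 10.3 at E18, 43.8 and 40.1 at E21, then 44.9 and 119.4 at E28.

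**Figure D1:**
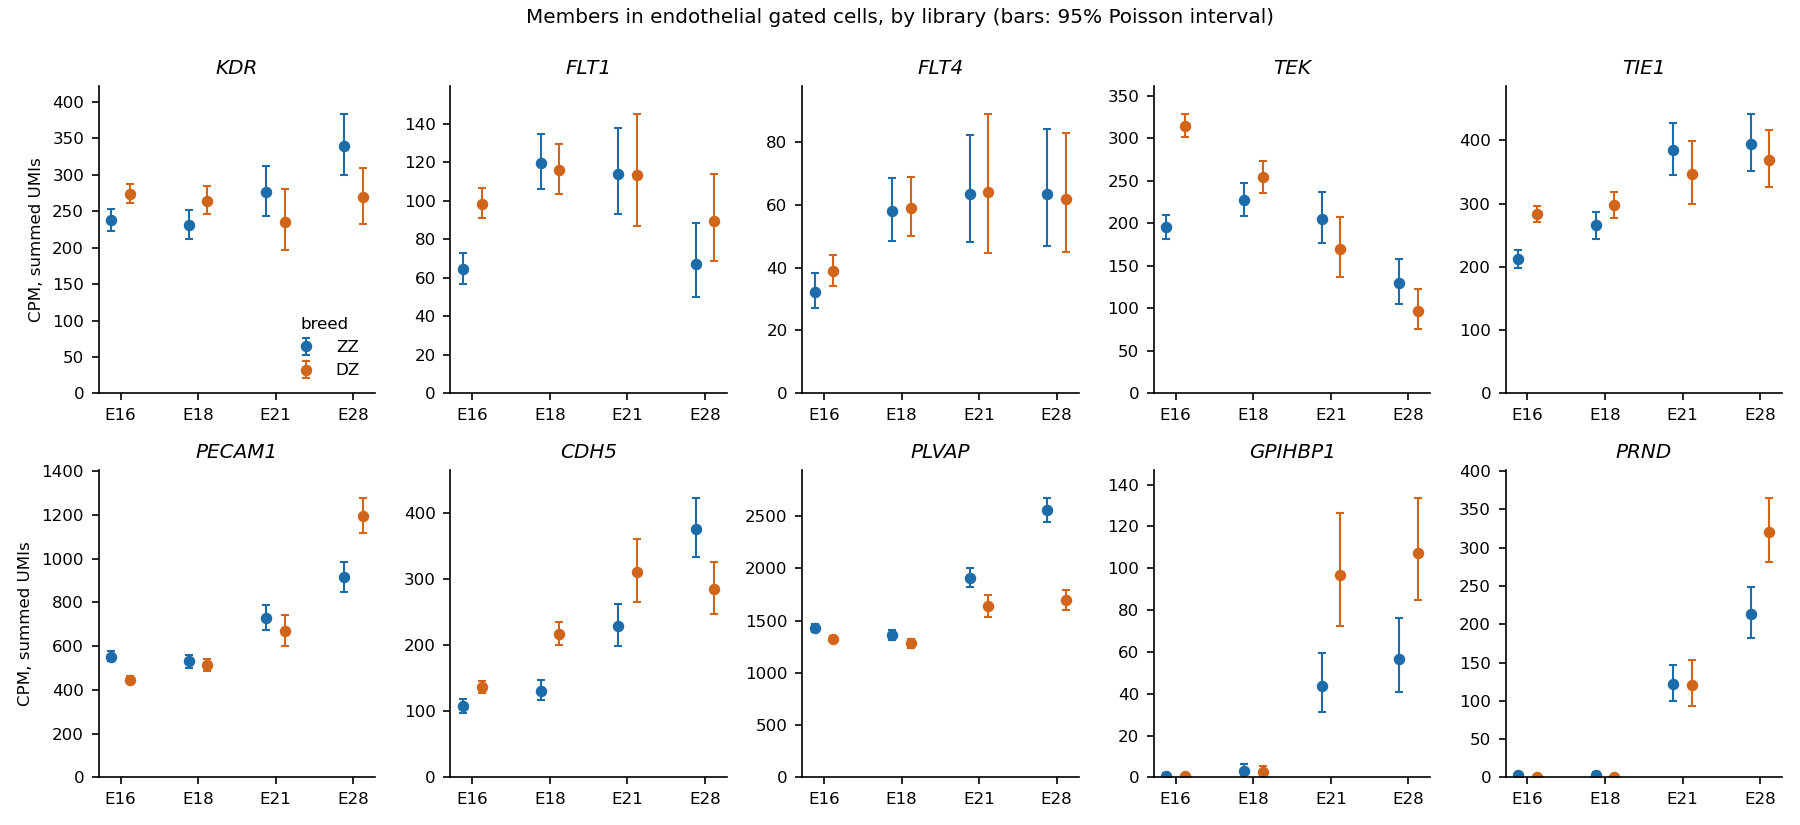
CPM of the UMIs summed over endothelial gated cells (vertical axis, from 0) for each gene at E16, E18, E21 and E28, with 1 point per library, ZZ and DZ in separate colours, and bars for the 95% Poisson interval, which covers counting error only. PRND and GPIHBP1 were at or below 3.48 CPM in all 4 early libraries and at 43.8 CPM or more in all 4 late ones, TEK was lowest at E28, and KDR and FLT1 overlapped between early and late libraries.

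In all, 7 of the 10 genes (FLT4, TIE1, PECAM1, CDH5, PLVAP, GPIHBP1 and PRND) had every late library above every early one, 0 had every late library below, and KDR, FLT1 and TEK overlapped. Over the 9232 genes kept in the fit, 17.8% were above without overlap and 10.1% below, and since the stage levels chose the members nothing is read from their count. The count of 7 was 4 after relative log expression scaling, in which KDR had a ratio of 0.99, and 2 with a gate of at least 3 genes, in which KDR had 0.85 and PLVAP 1.13. GPIHBP1 and PRND were above without overlap in both of these settings, and TEK was below without overlap in both. The count was also 7 without E16-ZZ, the library with the most barcodes over the mitochondrial limit.

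To compare cells at equal depth, each cell was thinned to 2000 UMIs and shallower cells, at most 22 gated ones in a library, were left out. A UMI of PRND was then found in 0.261% of cells in E16-ZZ, 0.532% in E18-ZZ and in 0 of 777 cells in E16-DZ and 0 of 268 in E18-DZ (exact Clopper-Pearson upper 95% limits of 0.474% and 1.37%). In late libraries the share was 21.1% (95% interval 13.4% to 30.6%) and 10.6% (3.55% to 23.1%) at E21 and 29.9% (19.3% to 42.3%) and 38.7% (26.6% to 51.9%) at E28. Every late library was above the early ones, and among cells outside the gate at most 0.229% had a PRND UMI. GPIHBP1 was found in at most 0.522% of early gated cells and in 7.37% (3.01% to 14.6%) and 12.8% (4.83% to 25.7%) at E21 and 11.9% (5.30% to 22.2%) and 16.1% (8.02% to 27.7%) at E28, and in at most 0.0499% of cells outside the gate. The intervals of the late libraries overlapped each other for both genes, except that the lower bound of PRND in E28-DZ was above the upper bound in E21-DZ.

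At this depth TEK was found in 31.1% and 43.9% of gated cells at E16 and 36.2% and 34.3% at E18. The shares were 25.3% and 19.1% at E21 and 23.9% and 17.7% at E28, all below the early ones. KDR was found in 35.8% to 40.0% of early and 23.4% to 44.8% of late gated cells, with E21-DZ lowest. PLVAP was found in 79.9% to 88.0% of early gated cells, in 72.3% of E21-DZ and in 82.3% to 86.6% of the other late libraries. Most gated cells thus had a PLVAP UMI at every stage, and why their share did not rise with the CPM was not tested. CDH5 was found in 20.4% to 29.9% of early and 34.7% to 52.2% of late gated cells, without overlap. PECAM1, TIE1 and FLT4, which did not overlap by CPM, overlapped as shares of cells, as did PLVAP. FLT4 was found in 6.79% to 14.9% of early and 8.06% to 11.9% of late gated cells. PECAM1 was found in 53.2% to 58.0% of early gated cells, in 44.7% of E21-DZ and in 65.3% to 77.4% of the other late libraries. TIE1 was found in 38.9% to 45.2% of early and 38.8% to 53.7% of late gated cells. A median of 3 of the 10 genes was detected per cell in each early library and of 3 to 4 in late ones, while 2.70% to 4.79% of early and 8.06% to 21.3% of late gated cells had none, the most in E21-DZ.

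**Figure D2:**
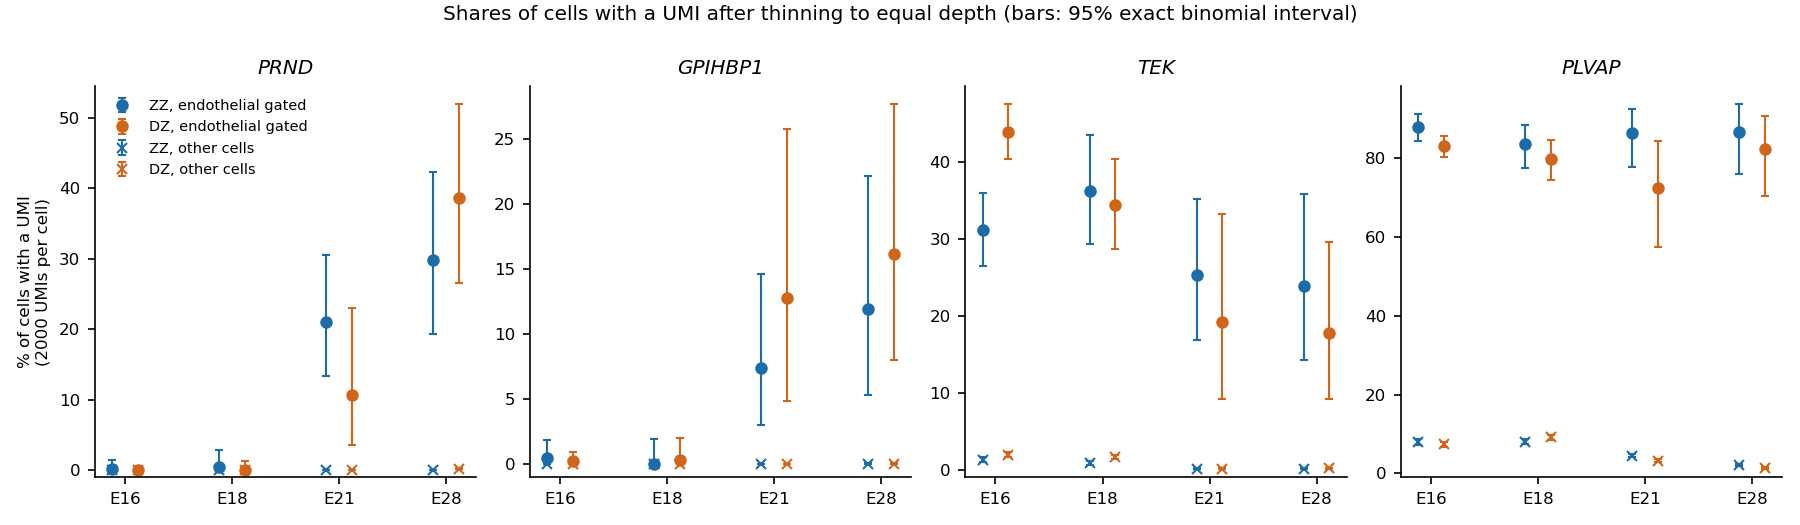
Percent of cells with a UMI of PRND, GPIHBP1, TEK and PLVAP (vertical axis) by stage after thinning to 2000 UMIs per cell, in endothelial gated cells (circles) and other cells (crosses), with colours for ZZ and DZ and bars for the 95% exact binomial interval. PRND reached 38.7% and GPIHBP1 16.1% of gated cells in E28-DZ, TEK was lower in all late libraries than in the early ones, and PLVAP was found in 72.3% or more of the gated cells in every library.

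PRND and GPIHBP1 were found together in many late cells, as were other pairs of members. PRND was found in 54.0% of late gated cells with a PECAM1 UMI and 3.85% of those without. For TIE1 it was 57.3% and 8.22%, and for GPIHBP1 73.1% and 34.7%. Co-detection was thus not particular to PRND and GPIHBP1. Of 291 late gated cells, 131 had a PRND UMI, 78 a GPIHBP1 UMI and 57 both. Among the GPIHBP1 cells PRND was found in 9 of 19 (47.4%) in E21-ZZ, 7 of 13 (53.8%) in E21-DZ, 16 of 18 (88.9%) in E28-ZZ and 25 of 28 (89.3%) in E28-DZ. Among the other gated cells of the same libraries it was found in 27.9%, 19.05%, 47.1% and 52.9%, lower in each of the 4. All 78 GPIHBP1 cells and 130 of the 131 PRND cells also had a PLVAP UMI, against 256 of all 291. After thinning to 2000 UMIs, PRND was found in 3 of 7 GPIHBP1 cells in E21-ZZ, 3 of 6 in E21-DZ, 2 of 8 in E28-ZZ and 6 of 10 in E28-DZ, against 21.1%, 10.6%, 29.9% and 38.7% of all gated cells of those libraries. The difference was thus absent in E28-ZZ at equal depth, and these counts are too small to compare libraries.

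Outside the gate most members were scarce. Of all UMIs of a member, the gated cells held 94.4% for CDH5, 92.5% for GPIHBP1, 92.2% for PECAM1, 88.2% for FLT4, 84.8% for PRND, 77.7% for KDR, 72.5% for TEK, 71.9% for FLT1, and 68.0% each for TIE1 and PLVAP. Over whole libraries, where fewer endothelial cells and less RNA per cell cannot be told apart, 8 members had a lower mean late than early. CDH5 was at 11.4 CPM early and 5.21 CPM late over all cells, and TEK at 27.1 and 3.16. GPIHBP1 and PRND were higher late even so, at 0.119 and 1.32 CPM for GPIHBP1 and 0.265 and 3.78 CPM for PRND. Cells outside the endothelial gate were put in further gates to see where the rest lay. Such a gate asked for at least 3 genes of another marker list. At least as many of that list's genes had to be found as were missing. No other list could have as high a share of its genes found. All other cells outside the endothelial gate were left in no class. These further gates were set after the data were seen and name marker content, not proven cell types. Cells of no class held 744 of the 1015 early KDR UMIs outside the endothelial gate and 896 of 1458 for TIE1. For PLVAP it was 7154 of 9604 and for TEK 640 of 1602. Late, they held 78 of 372 for KDR, 327 of 997 for TIE1, 1297 of 3053 for PLVAP and 28 of 104 for TEK.

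TEK was also found outside the endothelial gate. In early cells of the fibroblast gate, which carry collagen genes such as COL1A1, TEK was at 25.8 and 55.0 CPM at E16 and 22.7 and 64.3 CPM at E18, from 856 UMIs in 2589 cells. In late cells of the same gate it was at 0.97 and 0.25 CPM at E21 and 0.58 and 1.53 CPM at E28. Erythroid cells, which should lack the gene, had 0.559 CPM early. TEK was above that level in all 4 early libraries, and the DZ library was higher at both early stages. There were 0.556 TEK UMIs for each PLVAP UMI in these early cells and 0.192 in early gated endothelial cells. The 138 early cells outside the endothelial gate with at least 3 TEK UMIs came from all 4 early libraries (19 and 35 cells at E16, 25 and 59 at E18) and were led by COL1A1 and CST3, at 4049 and 37010 CPM.

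KDR outside the gate came in part from a small group of early cells. There were 40 early cells with at least 3 KDR UMIs outside the gate, 34 of them from E16-DZ. They were led by ETV2, a factor that starts the blood and endothelial lineages, at 699 CPM against 14.8 CPM in the other ungated early cells, and by EGFL7, LMO2 and CD93, and TEK was at 186 CPM. KDR was also found in the neural crest or glia gate at 7.35 and 3.92 CPM at E21 and 19.5 and 18.1 CPM at E28, from 16 and 5 and from 12 and 13 UMIs. Late erythroid cells had 3.53 CPM of KDR, with up to 6.52 CPM in a library, so that the E21 values were near that background and the E28 values above it. TIE1 was also found in neural gates. In the neural crest or glia gate it was at 20.2 and 11.05 CPM at E16 and 18.8 and 10.9 CPM at E18, and in the neuron gate at 21.1 and 13.7 CPM at E18, from 4 and 6 UMIs. In the neuron gate it was at 16.7 and 9.19 CPM at E21 and 0 and 5.37 CPM at E28, from 29 and 154 cells, and in the neural crest or glia gate at 27.1 and 18.8 CPM at E21 and 13.0 and 15.4 CPM at E28, so that early and late levels overlapped. In late neural crest or glia cells there were 3.64 TIE1 UMIs for each PLVAP UMI, in late neurons 4.60 and in late endothelial gated cells 0.191. TIE1 was at 3.17 CPM in early erythroid cells and had 0 UMIs in late ones. Other early gates had 10.5 CPM (chondrogenic), 8.69 (epithelial), 6.77 (fibroblast) and 6.01 (paraxial mesoderm), so that TIE1 outside endothelium was not limited to neural gates. PLVAP itself was at 69.5 CPM in early fibroblast-gated cells and 8.57 CPM in early erythroid cells, at 229 CPM in 68 late macrophage-gated cells, and at 276 CPM in 24 early and 228 CPM in 34 late cells of the pericyte or smooth muscle gate. Pooled over early or over late libraries, PRND and GPIHBP1 were at or below 2.57 CPM in every gate outside endothelium. In E18-DZ alone PRND was at 5.51 CPM in the myogenic gate, from 2 UMIs. In early and late erythroid cells both PRND and GPIHBP1 had 0 UMIs.

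**Figure D3:**
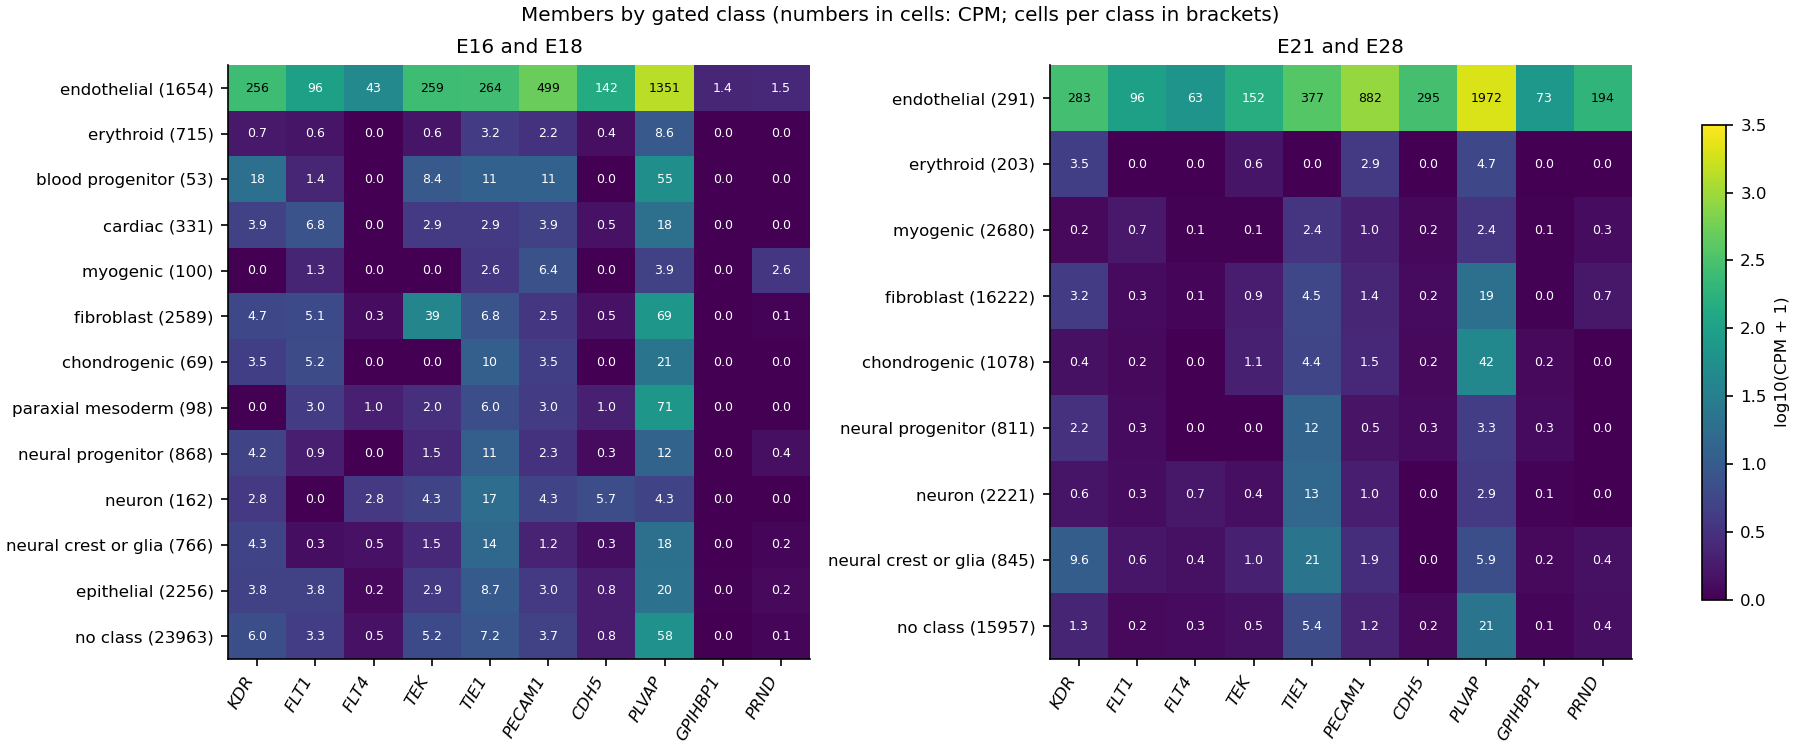
CPM of each gene (columns) in cells gated by marker lists (rows, with the number of cells in brackets, classes with at least 500000 UMIs) for E16 and E18 on the left and E21 and E28 on the right, coloured by log10(CPM + 1). The endothelial row is highest for every gene in both panels except PRND early, where 2 UMIs put the myogenic gate at 2.57 CPM, and TEK also stands out in early fibroblast-gated cells.

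The 2 breeds were compared in endothelial gated cells over all 4 stages, with stage as a block. This comparison was not used to choose the genes. None of the 10 was called, and neither was any of the 9679 genes tested (0%) in edgeR's quasi-likelihood test at an adjusted p of 0.05, while 725 genes had an unadjusted p under 0.05 and DESeq2 called 4 genes, none of them a member. With 1 library per breed and stage, the p-values measure only the spread between these libraries. GPIHBP1 had the strongest breed difference of the members, with a log2 difference (DZ minus ZZ) of 0.87 ± 0.25 (SE), an unadjusted p of 0.00463 and an adjusted p of 0.51 in edgeR. DZ was higher than ZZ at E21 and E28. At E16 the ZZ and DZ values were 0.721 and 0.780 CPM, from 3 and 5 UMIs. At E18 they were 3.04 and 2.58 CPM, from 7 and 7 UMIs. PLVAP was lower in DZ at all 4 stages, by a log2 difference of -0.24 ± 0.11 (SE), and failed the test (edgeR, adjusted p = 0.685). CDH5 differed by 0.30 ± 0.17 (edgeR, adjusted p = 0.733) and FLT1 by 0.26 ± 0.14 (edgeR, adjusted p = 0.719). The other 6 members had log2 differences between -0.01 and 0.12, with standard errors of 0.12 to 0.16, and 0.33 for PRND. The breed difference of PRND was larger late than early by 3.47 ± 1.08 (SE) on the log2 scale, with ZZ higher at E16 and E18 and DZ higher at E28, and failed the test over all genes (edgeR, unadjusted p = 0.00937, adjusted p = 0.9999). With no filter on low counts it was 3.44 ± 0.69 (SE) and was called (edgeR, adjusted p = 0.000348), as 1 of 72 genes, while the adjusted p was 0.333 in DESeq2 and 0.864 or more in the other alternatives. It rests on 12 and 8 early UMIs in ZZ and 1 and 2 in DZ.

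**Figure D4:**
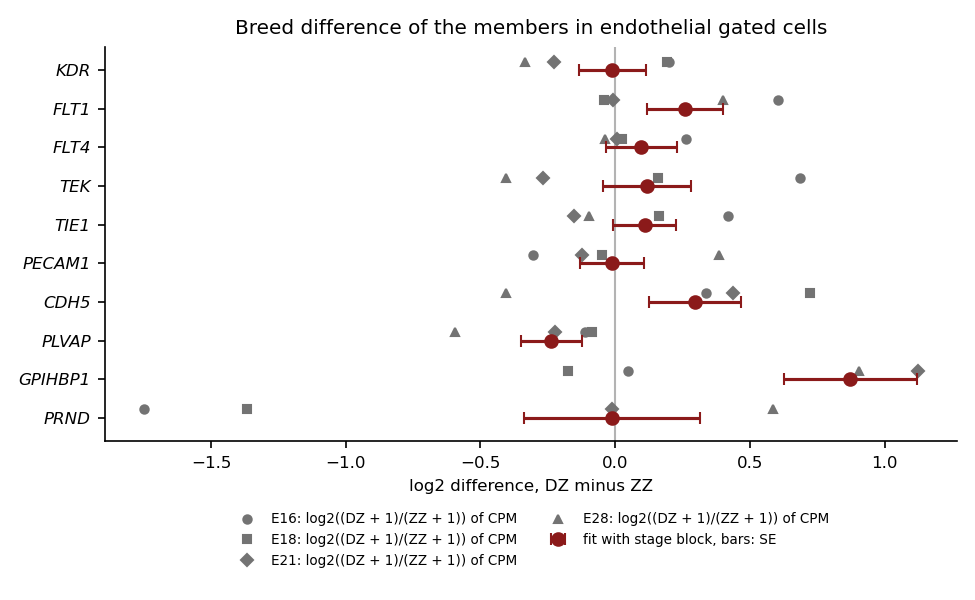
Log2 difference DZ minus ZZ in endothelial gated cells (horizontal axis) for each gene, with grey symbols for the 4 stages on the log2(CPM + 1) scale and red points for the fit with stage as a block, whose bars are standard errors. Of the fitted values that of GPIHBP1 lies farthest from 0 at 0.87 and PLVAP is below 0 at every stage, and no gene passed the test.

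Genes around the members were taken from 8 lists, which were chosen with earlier results of these data known. Their calls are thus no independent support for the stage pattern of the members. The list genes were tested for late against early libraries with breed in the model. The test was edgeR's quasi-likelihood test with Benjamini-Hochberg adjustment. The fit treated the libraries of a stage as independent, so its p-values do not measure the spread between stages. Of 9232 genes tested, 13.2% were higher in late libraries and 12.8% lower, with a median log2 difference of 0.01. Of the 95 list genes tested, 36 were higher and 17 lower, with a median of 0.43. Without both E28 libraries, 16 were higher and 7 lower, with 0 of the VEGF and TIE list, 2 of the transcription factors and 3 of the tip cell genes among those higher. The medians of these 3 lists were 0.28, 0.44 and 0.92 without E28, against 0.34, 0.60 and 1.16 with all libraries. Of the genes named here, KLF4, ETV2, CTNND1, ANGPTL4, CDK1, UNC5B, NOTCH4, CAVIN2, VEGFC, PTPRB and NRP1 missed the threshold without E28.

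Among ligands and co-receptors of the VEGF and TIE receptors, 3 of 9 rose, none fell and the median was 0.34. The genes that rose were VEGFC, the ligand of FLT4 (log2 1.41 ± 0.32, SE), PTPRB, the phosphatase that restrains TEK (1.30 ± 0.27) and the VEGF co-receptor NRP1 (0.76 ± 0.19). VEGFC was at 18.8 and 16.1 CPM at E16, 37.4 and 51.6 at E18, 83.2 and 105.8 at E21, then 54.1 and 108.4 at E28. All late libraries were above the early ones. NRP1 also missed the threshold without E28-ZZ. In the list of endothelial transcription factors 8 of 18 rose and 1 fell, with a median of 0.60. EPAS1 (2.31 ± 0.38), TCF4 (1.63 ± 0.28) and KLF4 (1.54 ± 0.36) rose most, and ETV2 fell by 2.05 on the log2 scale (SE 0.42). KLF4 was at 89.8 and 388.6 CPM at E21 and 83.1 and 295.1 CPM at E28. Its early libraries were at 32.6 to 75.5 CPM, so most of its rise lay in the DZ libraries.

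Genes of caveolae and vessel maturation, the list nearest in role to PLVAP and GPIHBP1, rose in 12 of 19 cases and fell in none, with a median of 1.35. CAV1, the coat protein of caveolae, changed by 4.36 ± 0.53, from a mean of 0.47 CPM early to 10.96 CPM late. Its libraries were at 0.24 to 0.74 CPM early and 4.38 to 20.6 CPM late. As 3 UMIs were 0.721 CPM in E16-ZZ, the size of its change rests on few UMIs. CAVIN2 changed by 2.49 ± 0.52 and CAV2 by 2.08 ± 0.25. Without both E28 libraries 6 of this list were higher. The summed fibroblast markers of gated cells were also higher late, at 237 to 642 CPM early and 501 to 1146 CPM late, and CAVIN3 of this list was at 558 CPM in the ungated early cells with TEK that carried COL1A1. The part of such cells in the rise of this list was not tested. Of 9 junction genes 4 rose and none fell. JAM2 changed by 3.78 ± 0.39, CDH2 by 2.03 ± 0.54 and CTNND1, a catenin that binds CDH5, by 0.84 ± 0.16. CDH2 missed the threshold without either E21 library. It was at 2.65 to 6.71 CPM early, 31.7 and 32.8 at E21, then 5.28 and 8.23 at E28. Its rise thus lay at E21, and its early and E28 values overlapped.

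Of 14 Notch and arterial genes 3 rose (CXCR4 by 1.76 ± 0.25, UNC5B by 0.96 ± 0.19 and NOTCH4 by 0.85 ± 0.17) and 2 fell. HEY2 fell by 2.78 (SE 0.43) and GJA5 fell by 2.34 (SE 0.30) on the log2 scale. With a gate of at least 3 genes 1 of this list was higher and the median was -0.09, and with the 5% limit 7 of 13 were higher with a median of 1.33, against 0.38 here. GJA5, an arterial connexin, was at 140 to 520 CPM in early and 33.9 to 136 CPM in late libraries. Of 7 venous and lymphatic genes, APLNR rose (1.08 ± 0.18) and STAB1 fell by 0.93 (SE 0.19). Of 10 tip cell genes, a set of leading cells in a growing sprout, 7 rose and 1 fell. Among those that rose were CXCR4 and UNC5B, which are also in the Notch and arterial list. APLN, the ligand of APLNR, rose by 3.20 ± 0.41 and PDGFB by 1.66 ± 0.22, while ANGPTL4 fell by 1.71 (SE 0.35). All 12 proliferation genes fell, and CDK1 fell by 1.84 (SE 0.42), BIRC5 fell by 1.44 (SE 0.18) and CCNB1 fell by 1.37 (SE 0.23). Without both E28 libraries 4 of the 12 were called lower, with a median of -0.93 against -1.13.

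**Figure D5:**
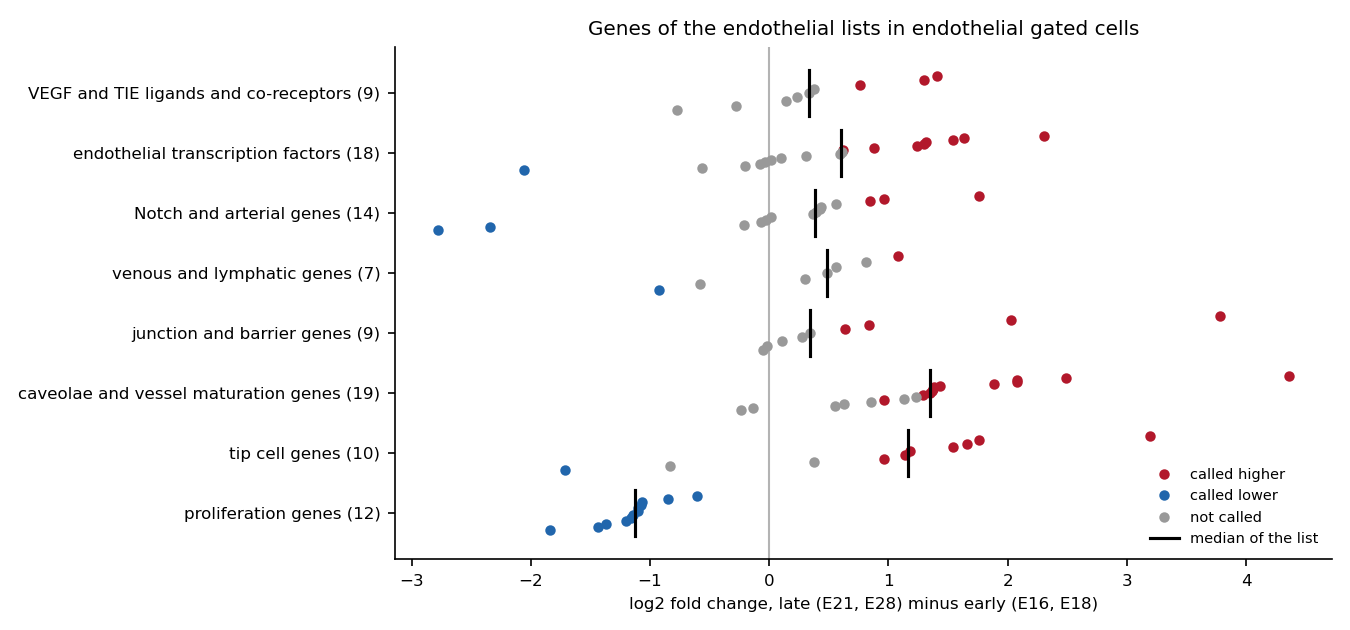
Log2 difference late minus early in endothelial gated cells (horizontal axis) of the tested genes in 8 lists (rows, number tested in brackets), red for called higher, blue for called lower, grey for not called, with a black line at the median of each list. Medians run from -1.13 for proliferation genes, all 12 of them called lower, to 1.35 for caveolae and maturation genes.

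For each member the 2 genes with the most similar profile over the 8 libraries were sought among 5678 genes. Likeness was the root mean square difference of centred log2(CPM + 1). Members and gate genes were not among these candidates, so that no member could be named for another. Among the candidates GPIHBP1 and PRND had the same nearest genes, FILIP1 and PALMD. The differences were 0.702 and 0.703 for GPIHBP1 and 1.04 and 1.04 for PRND, on profiles that spanned 5.97 and 8.12 log2 units. FILIP1 was at 1.20 and 0.62 CPM at E16, 14.3 and 8.10 at E18, 137.9 and 138.7 at E21, then 201.9 and 216.8 at E28. As FILIP1 was picked for likeness to the profiles of both members, its early low and late high levels are no separate result. Its level at E18 was above that at E16. CDH5 was nearest to ZFP36L2 (0.129) and ANKRD10 (0.139), and TEK to ENSSSCG00000035836 (0.155) and LHPP (0.179). PECAM1 was nearest to ITGB1BP1 (0.0910) and TMEM87A (0.114), and PLVAP to CCDC22 (0.0887) and MGAT4B (0.113). The profiles of KDR (TSPAN31, 0.0641, and UBXN6, 0.0759), FLT4 (LENG8, 0.0512, and GOLPH3L, 0.0657), TIE1 (PHF14, 0.0667, and ATRX, 0.0897) and FLT1 (MDK, 0.143, and ARL3, 0.150) spanned 0.55 to 0.97 log2 units, so that many genes of steady level would be near them.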

How the data were processed

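Single-cell RNA-seq (10x Genomics 3' chemistry) was run by the authors on 8 libraries, and per the file headers Cell Ranger 3.1.0 made the E16 matrices and 3.0.2 the others, on the Ensembl annotation of Sscrofa11.1. The authors deposited raw UMI counts per gene and cell, with no normalization. Of 90688 barcodes, those with under 200 genes, over 30000 UMIs or over 10% mitochondrial UMIs were removed, and then the highest Scrublet scores at 0.8% per 1000 barcodes, 8247 in all, which left 74147 cells. Scrublet's automatic threshold would have marked 1497. Counts were summed per library over endothelial gated cells (at least 4 of 18 listed genes, of which 16 were present and 15 detected) and tested with edgeR 4.0.16 (TMM scaling, filterByExpr, adjusted p of 0.05), with DESeq2 1.42.0 as an alternative. The fit was tested on simulated data. R 4.3.3, limma 3.58.1, Python 3.11.15 and scanpy 1.11.5 were used. Intervals are 95% Poisson for CPM and exact binomial for shares and cover counting error only. Named genes were all members, and up to 3 list genes higher and 3 lower by size of change. Also named were 2 alike genes per member (mean of at least 20 CPM, neither members nor gate genes). The members and lists were chosen with earlier results of these data known. The gate of at least 6 genes, the shares of unthinned cells, the gates outside endothelium and the genes leading ungated cells were added after seeing the data. The start sites and the 250 bases before them came from RefSeq's annotation of the same build. Alternatives were other gates, doublet and mitochondrial limits, scalings, filters and left-out libraries.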

Additional observations from a re-analysis of the deposited data

How the results depend on the processing

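The 0 breed calls over all genes were 1 with a gate of at least 5 genes, 5 with at least 6, 3 with a gate on cells thinned to 1500 UMIs, 1 without gated cells carrying other markers, 4 with DESeq2, 140 with no filter on low counts, 9 without both E16 libraries and 0 to 11 when 1 library was left out (11 without E16-ZZ and 11 without E16-DZ). The members called for breed were 0 in every one of these, and PRND was called for the breed difference late against early with no filter on low counts only. The late against early calls, 1217 higher and 1182 lower, were 315 and 140 with a mitochondrial limit of 5% (E28-DZ alone against 3 early libraries), 401 and 260 without both E28 libraries, 594 and 411 without both E16 libraries, and 797 to 1173 and 675 to 1118 with 1 library left out, lowest without E16-DZ. The list calls, 36 higher and 17 lower, were 16 and 7 without both E28 libraries, and 33 and 4 with the 5% limit, where 2 of 11 proliferation genes were called with a median of -1.08 against -1.13. That limit left 4 libraries (E16-ZZ, E16-DZ, E18-DZ and E28-DZ) with 20 gated cells, too few for the breed fit, which was not run. Its late values thus rest on 1 library, assumed to vary like the early ones. There the late to early ratio was 3.15 for CDH5, 4.27 for PECAM1, 3.14 for TIE1, 1.73 for FLT1, 2.30 for FLT4 and 0.362 for TEK. In the main setting the ratios were 2.02, 1.72, 1.41, 0.962, 1.34 and 0.606, so that FLT1 changed direction. FLT1 was also higher late than early without E28-ZZ, without both E28 libraries and with a gate of at least 5 genes. With the 5% limit GPIHBP1 was at 117.9 CPM and PRND at 403.6 CPM in E28-DZ. In the early libraries left, GPIHBP1 was at 0, 0 and 3.29 CPM and PRND at 0.

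The difference in endothelial gated share was -5.43 to -3.33 with 1 library left out (exact permutation p = 0.0571, the smallest possible), -4.33 without E28 and -1.78 without E16 (exact permutation p = 0.133 for both, the smallest possible). The count of 7 members without overlap was 2 with a gate of at least 3 genes, 5 with the gate on thinned cells, 4 with relative log expression scaling, 3 as thinned and 2 as unthinned shares of cells. Without gated cells carrying other markers, 57.3% of all member UMIs lay in gated cells instead of 74.3%.

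Breed differences near 0 changed sign. KDR (-0.01) was 0.037 and 0.024 with gates of at least 5 and 6 genes, 0.0068 with no doublets removed, 0.11 without both E28 libraries and -0.091 to 0.10 with 1 library left out. FLT4 was -0.030 with the thinned gate. TEK was -0.11 without both E16 libraries and -0.11 to 0.27 with 1 library left out, and TIE1 -0.00077 to 0.19. PECAM1 (-0.01) was 0.045 and 0.031 with the stricter gates, 0.034 with the thinned gate, 0.0075 without other markers, 0.098 without both E16 libraries, 0.051 with no stage block and -0.13 to 0.093 with 1 library left out. PRND (-0.01) was 0.021, 0.011, 0.10, 0.10, 0.22 and 0.38 in the same 6 settings and -0.53 to 0.22 with 1 library left out. Leaving out 1 library makes its stage partner uninformative under the stage block. Of the members' breed differences under all alternatives 168 kept their sign and 32 did not. Of the late minus early differences of named list genes 506 kept sign and call, 25 lost only the call and 0 reversed. The cause was not tested. The breed fit paired the ZZ and DZ libraries of a stage through the stage block, and without that block 0 genes were called for breed too. The labels give no replicate numbers for any other pairing. The 1945 gated cells, 291 of them late, limit the precision of every late value.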
